A study of Mus musculus with 4 samples.

Results

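Interleukin 3, interleukin 5 and GM-CSF act through receptors whose chain genes were measured here in erythroid progenitors that lack Rcor1. The 5 genes were taken by symbol from the table of read counts: the beta chain genes Csf2rb and Csf2rb2 and the alpha chain genes Csf2ra, Il3ra and Il5ra. All 5 were found among 35927 gene rows with counts, and all 5 were among the 13140 genes abundant enough to test. Messenger RNA was sequenced from cells of C57BL/6 mouse fetal liver at stage E13.5 of embryonic development, sorted as CD71+ and TER119- (CD71 is the transferrin receptor, and TER119 marks later red cell precursors). The mutant group was Rcor1-/-, and the control group joined Rcor1+/+ with Rcor1+/- embryos; Rcor1 encodes the CoREST scaffold of a histone demethylase and deacetylase complex. Each group had 2 libraries, each made from RNA pooled over several livers, so the spread between libraries is that between pools, and the sources used here do not give the mix of genotypes in a control pool.

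These receptors belong to the class I cytokine receptor family. Each alpha chain binds its own ligand with low affinity, and a beta chain joins it to form the signalling receptor. Csf2rb encodes the beta chain shared by all 3 receptors; Csf2rb2 is a copy found in mice whose product serves the interleukin 3 receptor. The beta chain carries the kinase Jak2, through which Stat5 and the Ras and phosphoinositide 3-kinase pathways are activated, and the receptors are best known from granulocytes, macrophages, eosinophils, basophils and mast cells, whereas red cell progenitors depend on the related erythropoietin receptor.

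Library totals ran from 15053229 to 26892375 counts. Counts of Rcor1 were 4083 and 3807 in controls against 2061 and 1240 in mutants, a change of -1.09 ± 0.06 on the log2 scale; counts per gene do not show which exons the remaining reads cover. Levels below are CPM (counts scaled to a fixed library total, which is corrected by the TMM factor on the assumption that most genes do not change). Changes are log2 ratios of mutant to control levels, given ± 1 standard error, and were tested by the quasi-likelihood method of edgeR with Benjamini-Hochberg adjustment over all tested genes. With that test 57.5% of tested genes passed the threshold of 0.05, which splits into 28.3% higher and 29.2% lower, and in 77.9% of tested genes the libraries of the groups did not overlap. Passing the test is therefore common in this comparison, and sizes are given beside calls.

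The beta chain genes rose from near absence to high levels in the mutant progenitors, whereas the alpha chain genes moved unevenly. Csf2rb (ENSMUSG00000071713) and Csf2rb2 (ENSMUSG00000071714) had the largest and the second largest fitted log2 fold changes of the 13140 genes tested. Il5ra rose from 2 counts over both controls, Il3ra rose 1.59-fold, and Csf2ra did not pass. In all, 4 of the 5 genes passed and were higher, where 28.3% of tested genes were. Csf2rb2 and Il5ra passed the filter on low counts only through the mutant libraries, so for them a difference was built into being tested, and the count is no measure of the family.

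For Csf2rb 61 and 16 reads were counted in controls, against 12001 and 7328 in mutants. As levels these were 2.38 and 0.733 CPM against 453 and 466 CPM, and the mean went from 1.56 ± 1.17 to 459 ± 9.04 CPM (SD, n = 2). Every mutant library lay far above both controls: the lower mutant level was 190-fold the higher control level. The change was 8.14 ± 0.27 on the log2 scale (edgeR adjusted p = 2.00e-04). Among tested genes ranked by level per length, Csf2rb stood at place 11344 of 12867 in controls and at place 913 in mutants.

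The copy Csf2rb2 was counted 13 and 2 times in controls, and 2353 and 1342 times in mutants. Its levels were 0.508 and 0.0917 CPM in controls and 88.8 and 85.3 CPM in mutants, a change of 8.08 ± 0.21 (edgeR adjusted p = 3.4e-11). The groups were again fully apart, with the lower mutant level 168-fold the higher control level. Csf2rb2 passed the filter on low counts only through the mutant libraries, so a difference was built into its being tested. The ratio of summed levels was 277, with an exact binomial 95% interval from 168 to 495, and that of Csf2rb was 282, from 225 to 357; these intervals cover counting error only.

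In both beta chain genes the control libraries differed from each other, and this sets the size of the change. Control replicate 1 had 3.25 times the Csf2rb level of control replicate 2, and 5.54 times its Csf2rb2 level. Of 1075 other tested genes whose summed control counts were within 1.5-fold of those of Csf2rb, 0 had as high a ratio between the controls, and 2 of 657 did so for Csf2rb2. Leaving out control replicate 1 gave 9.27 for Csf2rb and 9.80 for Csf2rb2 on the log2 scale, and leaving out control replicate 2 gave 7.57 and 7.39. Leaving out either mutant library moved these values to no less than 8.05 and no more than 8.16. The controls differed less in Sfpi1, the gene of the myeloid factor PU.1 (12.3 and 8.75 CPM). Their summed levels of eosinophil markers (8.87 and 8.66 CPM) and of monocyte and macrophage markers (13.1 and 12.4 CPM) were close. Single markers of the latter list differed in both directions, as in Lyz2 (1.45 and 0.871 CPM) and Csf1r (2.78 and 3.67 CPM). The kinase gene Tec was also unequal (1.68 and 0.55 CPM). Whether the genotypes mixed in the control pools had a part in the difference between the controls was not tested.

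**Figure D1:**
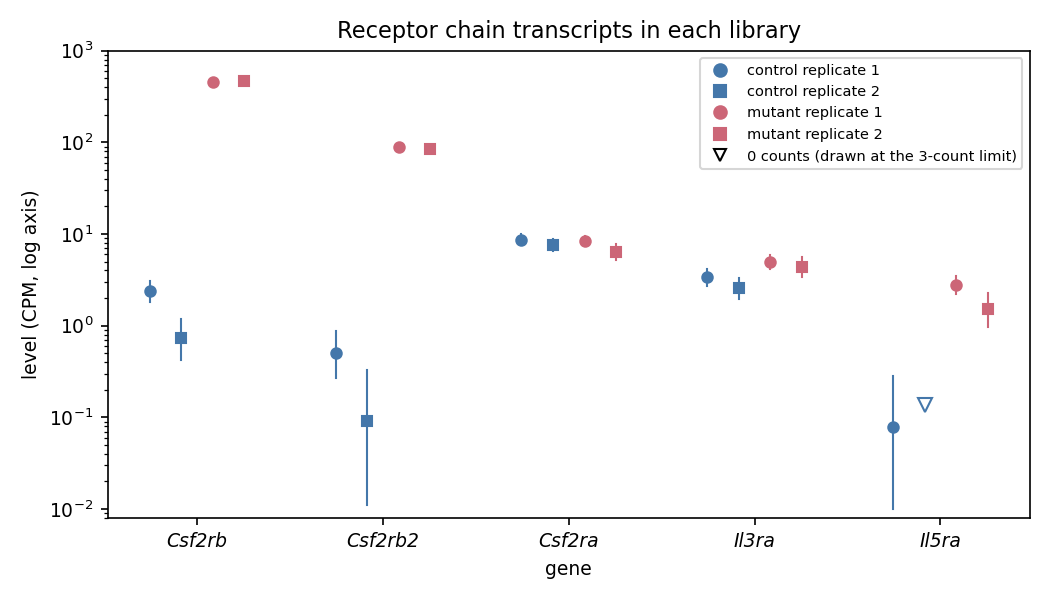
Level of the 5 receptor chain genes in each library (CPM on a log axis), with control libraries in blue, mutant libraries in red, circles for replicate 1 and squares for replicate 2. Lines are exact 95% Poisson intervals for counting error, and the open triangle marks a library with 0 counts at the level of 3 counts. The beta chain genes rise from at most 2.38 CPM to at least 85.3 CPM, while Csf2ra stays between 6.36 and 8.72 CPM in all 4 libraries.

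The beta chain genes are near copies, which bears on how reads were divided between them. Aligned over their coding sequences in GENCODE M21, 2691 bases for Csf2rb and 2637 for Csf2rb2, they were 95.2% identical outside gaps, with 126 mismatched bases and a longest identical run of 242 bases. In the transcripts with the longest coding sequence, of all windows of 36 bases in Csf2rb, 25.6% also occurred in Csf2rb2, and of windows of 75 bases 11.0%; none of the alpha chain transcripts shared a window of 36 bases with another member (0 of 1814 for Csf2ra, 0 of 1579 for Il3ra and 0 of 1669 for Il5ra). A read from a shared window cannot be placed, while one that covers a difference can. The stretches below show both cases. In the first, coding bases 688 to 777 of Csf2rb and 691 to 780 of Csf2rb2, the genes are identical:
Csf2rb: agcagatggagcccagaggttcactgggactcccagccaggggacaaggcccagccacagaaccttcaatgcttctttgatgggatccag
Csf2rb2: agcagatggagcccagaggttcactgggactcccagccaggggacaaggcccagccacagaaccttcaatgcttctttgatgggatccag
In the second, coding bases 298 to 387 of Csf2rb and 301 to 390 of Csf2rb2, 14 of 90 bases differ and are printed in capitals:
Csf2rb: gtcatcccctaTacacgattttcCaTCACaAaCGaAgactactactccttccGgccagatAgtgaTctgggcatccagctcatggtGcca
Csf2rb2: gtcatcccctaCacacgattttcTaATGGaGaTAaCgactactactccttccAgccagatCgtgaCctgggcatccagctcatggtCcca

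The sum over the pair does not depend on how counted reads were divided between the copies. Reads that fit both copies would be missing from the sum if they were discarded. Whether they were discarded is not stated in the sources used here. The summed counts changed by 8.14 ± 0.32 on the log2 scale (edgeR adjusted p = 0.00107), close to the value of either gene. The division between the copies was similar in the mutant libraries: Csf2rb2 took 16.4% of the pair's counts in mutant replicate 1 (Wilson 95% interval 15.8 to 17.0) and 15.5% in mutant replicate 2 (14.7 to 16.3). In controls it took 17.6% (10.6 to 27.8) of 74 counts and 11.1% (3.10 to 32.8) of 18 counts. The control intervals include both mutant shares, so a different division in controls was not detectable at this depth. Together the pair took 0.0570% and 0.0576% of all counts in the mutant libraries.

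Il5ra (ENSMUSG00000005364), the chain that binds interleukin 5, was counted 2 and 0 times in controls, and 74 and 24 times in mutants. The levels were 0.0782 and 0 CPM in controls, where 3 counts in the library with 0 would be 0.137 CPM, and 2.79 and 1.53 CPM in mutants. The groups did not overlap, as was so in 77.9% of all tested genes. Il5ra passed the filter on low counts only through the mutant libraries, so this separation was built into its being tested. Its level in mutant replicate 1 was 1.83 times that in mutant replicate 2. The fitted change was 5.58 ± 0.63 (edgeR adjusted p = 1.97e-06). The size of this change is poorly fixed: the ratio of summed levels, 55.0, had a 95% counting interval from 14.8 to 461, and the fitted value was 8.60 without control replicate 1, 4.75 without control replicate 2 and 4.17 with a prior count of 2.

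Il3ra (ENSMUSG00000068758), the chain that binds interleukin 3, was counted 86 and 56 times in controls, and 132 and 69 times in mutants. Its levels were 3.36 and 2.57 CPM against 4.98 and 4.39 CPM, so the groups did not overlap, though the lower mutant level was only 1.31-fold the higher control level. The change was 0.66 ± 0.19 (edgeR adjusted p = 0.00566). It did not pass with DESeq2 (0.66, adjusted p = 0.08) or without mutant replicate 1 (0.56, edgeR adjusted p = 0.0805).

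Csf2ra (ENSMUSG00000059326), the chain that binds GM-CSF, was counted 223 and 166 times in controls, and 222 and 100 times in mutants. Its levels were 8.72 and 7.61 CPM in controls and 8.38 and 6.36 CPM in mutants, and the groups overlapped. The change was -0.12 ± 0.15 (edgeR adjusted p = 0.506). The ratio of summed levels was 0.929 with a 95% counting interval from 0.799 to 1.08, which ends below the interval of Il3ra, 1.28 to 1.98. Both intervals leave out the spread between pools, and a difference between the changes of Csf2ra and Il3ra was not tested. The sign of the Csf2ra change was not fixed: it was positive without mutant replicate 2 (0.04) and with library totals as the only scaling (0.02).

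The log2 fold changes in the authors' deposited table were 8.29 for Csf2rb, 8.24 for Csf2rb2, 5.91 for Il5ra, 0.80 for Il3ra and 0.02 for Csf2ra. The authors' deposited table thus placed the genes in the same order. Scaling by library totals alone gave 8.28, 8.22, 5.71, 0.80 and 0.02 from the counts.

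**Figure D2:**
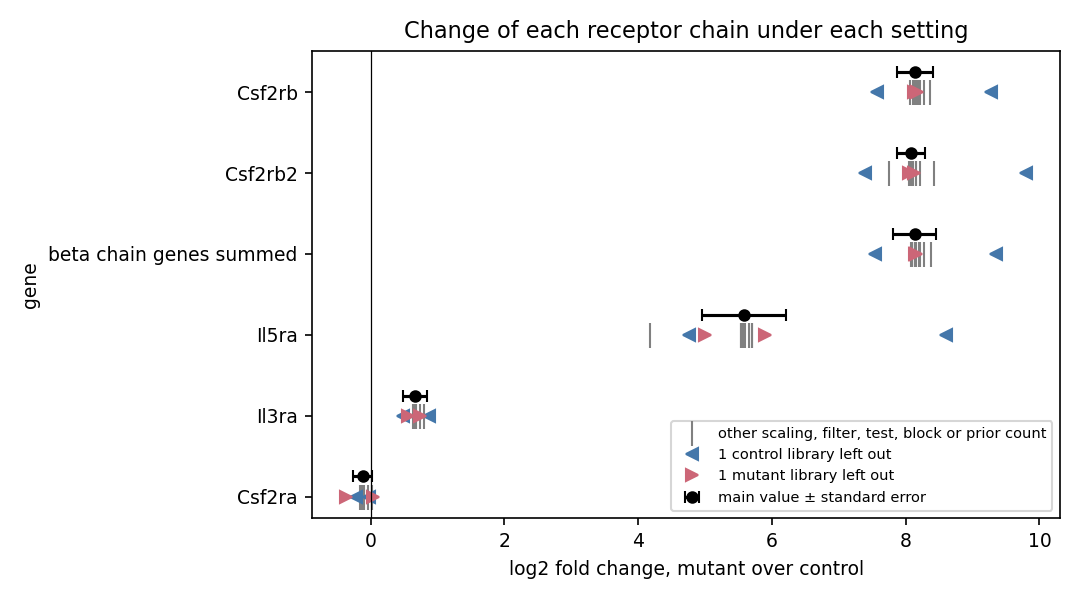
Log2 fold change of mutant over control for each receptor chain gene and for the beta chain pair summed. Black points with bars are the main values with standard errors, grey ticks other scalings, filters, tests and prior counts, and triangles the values with 1 library left out. The values that leave out a control library spread from 7.57 to 9.27 for Csf2rb, whereas Csf2ra stays near 0.

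Compared per length of transcript, the balance between beta and alpha chains turned over. The level of a gene per length is given here as CPM per kb of its longest coding transcript, and it is approximate, since counts and transcripts come from different builds and the transcript used is a choice. The summed beta chains were at 0.594 and 0.169 CPM per kb in controls and at 111 and 113 in mutants. The summed alpha chains were at 6.19 and 5.22 CPM per kb in controls and at 7.47 and 5.76 in mutants. The beta chains thus stood at 0.0960 and 0.0323 of the alpha chains in controls and at 14.9 and 19.6 times them in mutants.

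Within the family, Csf2ra led in controls, with 69.5% and 76.3% of the summed level of the 5 genes, and held 3.82% and 2.89% in mutants. Csf2rb held 7.17% and 2.78% in controls and 77.9% and 80.0% in mutants. The order in controls was Csf2ra (4.41 ± 0.42 CPM per kb), Il3ra (1.28 ± 0.24), Csf2rb (0.318 ± 0.238), Csf2rb2 (0.0633 ± 0.0621) and Il5ra (0.0109 ± 0.0155), and of neighbours in this order only Csf2rb2 and Il5ra overlapped in their library values. In mutants it was Csf2rb (93.8 ± 1.85), Csf2rb2 (18.4 ± 0.525), Csf2ra (3.98 ± 0.774), Il3ra (2.02 ± 0.182) and Il5ra (0.604 ± 0.251), and no neighbours overlapped. An alternative chosen after seeing the data used the transcript with the longest coding sequence, where Il5ra has 1704 in place of 3575 bases and Il3ra 1614 in place of 2315. The mutant means of these genes then became 1.27 and 2.90 CPM per kb, the order of the 5 genes was the same in both groups, and the beta chains stood at 0.0888 and 0.0304 of the alpha chains in controls and at 12.3 and 16.4 times them in mutants.

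Other class I receptor chains were taken from a list of 15 genes, of which 12 could be tested. Of these, 10 rose and 2 fell, where 28.3% of all tested genes rose and 29.2% fell. The median log2 fold change was 1.78 against 0.01 over all tested genes. The largest rises on this list were those of Il21r (3.32), a chain for interleukin 21, Il13ra1 (2.99), a chain for interleukin 13, and Il9r (2.40), the chain that binds interleukin 9. Il21r, Il13ra1 and Csf3r, all counted as rises, passed the filter on low counts only through the mutant libraries. A difference was thus built into their being tested, and the count and median are no measure of the list. The falls were those of Epor, the erythropoietin receptor (-0.92 ± 0.08, edgeR adjusted p = 1.42e-05), and Crlf2, which encodes a chain for thymic stromal lymphopoietin (-0.41 ± 0.15, edgeR adjusted p = 0.0307, not passed without any single library except control replicate 2, nor with DESeq2 or 2 of the other scalings). Il2rb, Il7r and Osmr were too scarce to test. Without control replicate 1, and with DESeq2, 7 of these genes rose and 1 fell.

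Per length, Epor was the most abundant of the 20 chains in both groups, at 260 ± 21.6 CPM per kb in controls and 137 ± 12.6 in mutants. Csf2rb came next in mutants and stood at place 9 in controls, and Csf2rb2 went from place 13 to place 3.

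**Figure D3:**
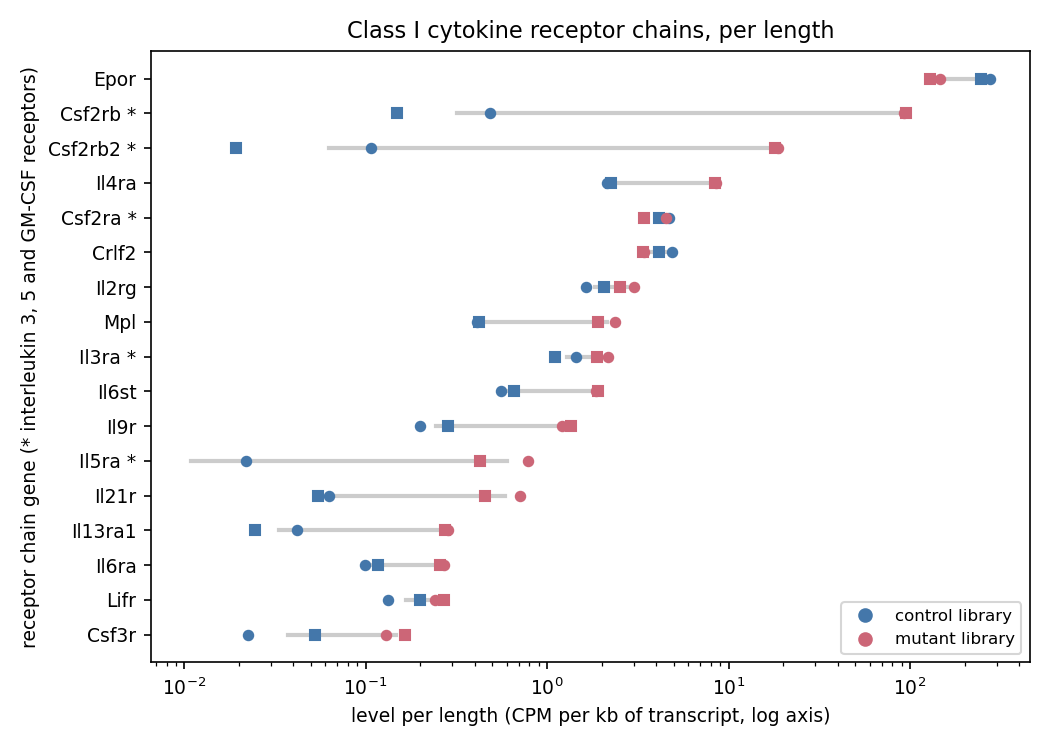
Level per length (CPM per kb of transcript, log axis) of class I cytokine receptor chain genes detected in controls, ordered by their mutant mean; stars mark the interleukin 3, 5 and GM-CSF receptor chains. Blue points are control and red points mutant libraries, circles replicate 1 and squares replicate 2, grey bars join the group means, and libraries with 0 counts are not drawn. Csf2rb moves from 0.318 to 93.8 CPM per kb, next below Epor, while Csf2ra is at 4.41 and 3.98 CPM per kb.

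The genes around the beta chain pair were called in both directions. In the RefSeq table of GRCm38.p6 the beta chain genes lie close to each other on chromosome 15. It holds 2 annotated genes between them, which are not among the neighbours given here. Of the 10 nearest tested genes outside the pair, 5 on each side, 2 rose, 4 fell and 4 did not pass, with a median log2 fold change of -0.29. Over all tested genes 28.3% rose and 29.2% fell, so calls in both directions are common in any set of genes. The riser next to Csf2rb2 was Ncf4, which encodes a subunit of the phagocyte NADPH oxidase. Its counts were 39 and 35 in controls against 223 and 125 in mutants, a change of 2.39 ± 0.18 (edgeR adjusted p = 4.67e-09). On the side of Csf2rb the nearest were the sulfur metabolism genes Tst (-0.40, edgeR adjusted p = 0.00386, and 0.075 without mutant replicate 2) and Mpst (-0.45, edgeR adjusted p = 1.81e-05), both lower. Ift27, the second gene beyond Csf2rb2, did not pass (-0.14), and the remaining riser was C1qtnf6 (1.20). Eif3d (-0.55) and Txn2 (-0.62) fell.

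**Figure D4:**
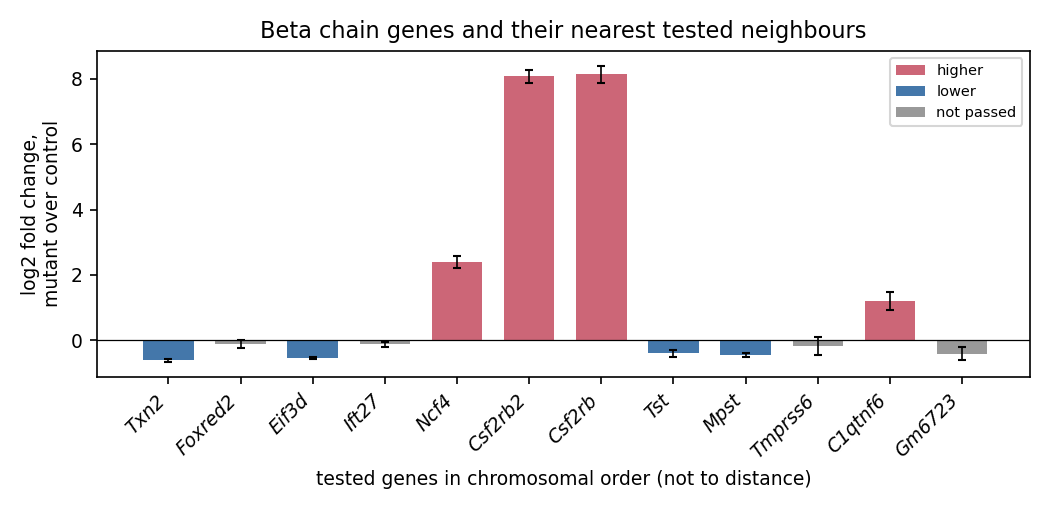
Log2 fold change of mutant over control (bars, with standard errors) for Csf2rb2, Csf2rb and the 5 nearest tested genes on either side, in chromosomal order and not drawn to distance. Red bars passed as higher, blue bars as lower, and grey bars did not pass. Beside the beta chain genes at 8.08 and 8.14, the next highest bar is Ncf4 at 2.39.

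Around the alpha chain genes, calls again went both ways, as they did over all tested genes (28.3% higher and 29.2% lower). Of 10 tested neighbours of Il5ra, 4 rose, 2 fell and 4 did not pass. The nearest were Trnt1 (0.30), Crbn (0.37), Cntn3 (-0.45) and Ppp4r2, which did not pass (0.20). Shq1 fell (-0.56), Itpr1 rose (0.27), and the largest change was that of Eif4e3 (2.05), a gene with 8 and 7 control counts. Eif4e3, and Ptprg near Il3ra, passed the filter on low counts only through the mutant libraries. Of 10 neighbours of Il3ra, 3 rose (Ptprg, 1.46, Ngly1, 0.34, and Thoc7, 0.16), 1 fell (Top2b, -0.13) and 6 did not pass, among them the nearest, Psmd6 (-0.05) and Slc4a7 (0.19). Csf2ra had tested neighbours on 1 side only, and of these 5 genes 1 rose (Grk5, 0.56, adjusted p = 0.0546 with DESeq2).

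Upstream sequences were taken from the RefSeq table for 4 of the 5 genes, all but Csf2rb. They are printed for the 2 strongly risen genes it holds, as the 250 bases before the annotated start in GRCm38.p6. Capitals mark matches on either strand to a GATA motif (the letters AGATAA, the letters AGATAG, the letters TGATAA or the letters TGATAG), the PU.1 core GAGGAA and the STAT5 motif TTCNNNGAA; the Gfi1 and Gfi1b core AAATCA was searched as well. These factors were chosen because they are known in blood progenitors or act downstream of the receptors. The window of Csf2rb2 is chr15:78305722-78305971 on the minus strand, and that of Il5ra is chr6:106749038-106749287 on the minus strand:
Csf2rb2: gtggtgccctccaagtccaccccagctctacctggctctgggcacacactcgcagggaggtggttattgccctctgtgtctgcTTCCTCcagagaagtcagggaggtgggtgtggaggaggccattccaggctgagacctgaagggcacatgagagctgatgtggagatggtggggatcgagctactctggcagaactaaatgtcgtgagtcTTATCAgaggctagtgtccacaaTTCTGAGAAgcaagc
Il5ra: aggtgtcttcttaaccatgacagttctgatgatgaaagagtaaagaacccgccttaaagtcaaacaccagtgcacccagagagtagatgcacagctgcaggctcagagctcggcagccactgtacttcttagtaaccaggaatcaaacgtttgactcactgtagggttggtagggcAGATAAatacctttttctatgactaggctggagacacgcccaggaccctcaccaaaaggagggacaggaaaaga
In Csf2rb2 the PU.1 core starts 167 bases, the GATA motif 38 bases and the STAT5 motif 15 bases before the start, and in Il5ra a GATA motif begins 74 bases before it. The window of Il3ra held 1 GATA motif, and that of Csf2ra 2 adjacent PU.1 cores, 14 and 8 bases before the start. No matches overlapped, and none of the 4 windows held AAATCA. Over all 32851 windows in the table a GATA motif was found in 26.5%, the PU.1 core in 23.3%, AAATCA in 12.4% and the STAT5 motif in 7.02%, and a match describes only these letters, not a bound site. CpG pairs numbered 3 in the window of Csf2rb2, 4 in Il5ra, 17 in Csf2ra and 27 in Il3ra, with a median of 6 over the table. Csf2rb, which had the largest change, has no window here. A link between CpG pairs and the changes was not tested.

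Genes whose pattern over the 4 libraries was nearest to each member were found by the Euclidean distance between log2(CPM + 1) values centred on the control mean, over 9959 genes. For both beta chain genes they were the kinase gene Tec, Rpp25 and Ablim1, at distances of 3.28, 3.88 and 3.95 from Csf2rb and 1.22, 1.77 and 1.84 from Csf2rb2. The distances from Csf2rb were thus wide even for the nearest genes. Tec had 1.68 and 0.55 CPM in controls, unequal as in the beta chain genes, against 74.4 and 79.5 CPM in mutants. The controls were nearer to each other in Rpp25 (0.391 and 0.275 CPM) and in Ablim1 (0.547 and 0.550 CPM). The nearest to Il5ra were Prss16, Bnip3 and Pmaip1 (0.140 to 0.208), to Il3ra Sigirr, Pigv and Isoc2b (0.0653 to 0.0686), and to Csf2ra Rps4x, Shbg and Psmb5 (0.0418 to 0.0543). Such closeness over 4 libraries in groups of 2 is a description of the values.

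RNA of the ligands was not detected, or barely so, in the sorted cells. Il3 and Il5 had 0 counts in all 4 libraries, which allows a level of up to 0.117, 0.137, 0.113 and 0.191 CPM in control replicates 1 and 2 and mutant replicates 1 and 2. Csf2, the gene of GM-CSF, had 2 counts in mutant replicate 1 and 0 elsewhere.

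Among 23 genes for proteins that carry the signal of the beta chain, 14 rose, 4 fell and 5 did not pass, with a median log2 fold change of 0.39. By comparison, 28.3% of all tested genes rose and 29.2% fell. Jak2, the kinase held by the receptor, went from 126 and 137 CPM to 185 and 185 CPM (0.49 ± 0.05, edgeR adjusted p = 3.8e-07). Rises among tyrosine kinase genes included those of Tec (6.05 ± 0.27, edgeR adjusted p = 2.25e-05) and Fes (2.09). Tec was the gene nearest in pattern to the beta chains, with a change of 7.10 when control replicate 1 was left out and 5.49 when control replicate 2 was. Both Stat5 genes fell, Stat5a by 0.39 and Stat5b by 0.32 on the log2 scale, as did Ptpn11, the phosphatase that links the receptor to Ras (-0.25), and Ywhaz, a 14-3-3 adaptor that binds the beta chain (-0.26). Among those that did not pass were Jak1, Sos1, Sh2b3 and Pik3r1, a regulatory subunit of phosphoinositide 3-kinase (0.88 ± 0.30, edgeR adjusted p = 0.118), which passed with DESeq2 (adjusted p = 0.0191) and with any 1 library left out. With library totals as the only scaling, 16 rose and 3 fell; Sos1 was then among the rises and Ywhaz did not pass.

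Among 15 genes known to respond to Stat5 or Ras signalling, 14 were tested: 9 rose, 2 fell and 3 did not pass, with a median of 0.60. Here too, the shares over all tested genes were 28.3% higher and 29.2% lower. The feedback inhibitor gene Socs1 was counted 12 and 13 times in controls but 321 and 150 times in mutants, which is 0.469 and 0.596 CPM against 12.1 and 9.54 CPM (4.37 ± 0.23, edgeR adjusted p = 5.95e-11). All mutant values lay above all control values, and the change stayed between 4.16 and 4.52 over all settings. Socs2 (1.80) and Id1, a gene of a dominant negative helix-loop-helix factor (1.41), came next. Of the best known Stat5 targets, Pim1, a survival kinase gene, rose from 45.1 and 39.4 to 108 and 109 CPM (1.35), and Cish, another feedback inhibitor gene, from 1.60 and 1.24 to 3.25 and 2.67 CPM (1.07). Mcl1 (-0.23) and Fos (-1.28) fell, and Pim2, Bcl2 and Osm did not pass. Egr1, with 4 counts in each library, was not tested. Fos passed the filter on low counts only through the control libraries. The count of rises was 7 with DESeq2 and without mutant replicate 1, and 11 with library totals as the only scaling, where Mcl1 did not pass (-0.09). Fos rested on 21 and 15 control counts and did not pass with DESeq2 (adjusted p = 0.249) or without control replicate 1, control replicate 2 or mutant replicate 1.

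Of 13 transcription factor genes of myeloid and erythroid cells, 12 were tested: 9 rose, 2 fell and 1, Myb, did not pass (0.07, but 0.21 and passed with library totals as the only scaling). With DESeq2, 7 rose. The largest rises were those of Fli1, an ETS factor (3.32), of Sfpi1, which went from 12.3 and 8.75 to 84.8 and 80.5 CPM (2.96 ± 0.13, edgeR adjusted p = 1.08e-08), and of Gata2 (1.79). Gata1, the main erythroid factor (-0.55), and its cofactor gene Zfpm1 (-0.55) fell. The list median was 1.16, and over all tested genes 28.3% rose and 29.2% fell. Gfi1, counted among the rises, passed the filter on low counts only through the mutant libraries. Cebpb was not found by symbol and is not analysed here.

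**Figure D5:**
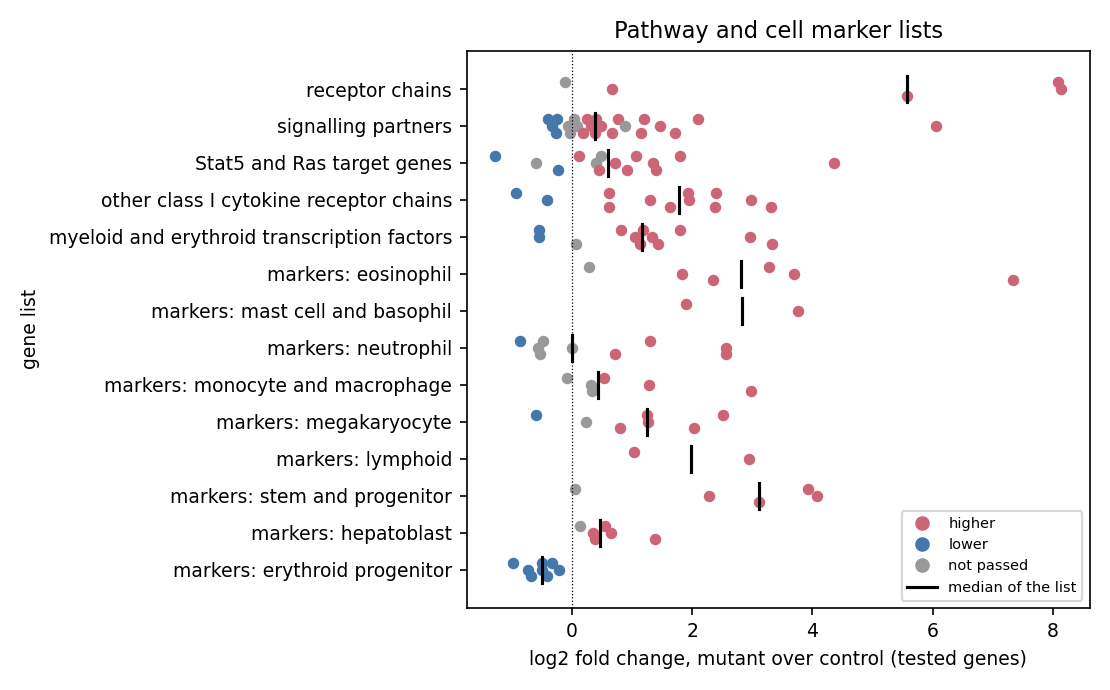
Log2 fold change of mutant over control for each tested gene of each list (points; red passed as higher, blue as lower, grey not passed), with the list median as a black bar and the median of all tested genes (0.01) as a dotted line. The beta chain genes at 8.14 and 8.08 lie to the right of all other genes drawn, and all 8 erythroid markers lie below 0.

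Markers of cells that bear these receptors, and of others the sort could hold, were read in the same libraries. In RNA from bulk samples a larger number of cells of a type and more RNA per cell cannot be told apart. Each count of called markers stands against 28.3% of all tested genes higher and 29.2% lower. Of the 8 eosinophil genes, 6 were tested and 5 rose, and their summed level went from 8.87 and 8.66 CPM to 37.0 and 38.5 CPM. Of the risers, Ccr3, Ear6 and Siglec5 passed the filter on low counts only through the mutant libraries. For these a difference was built into being tested. The granule protein gene Prg2 had 6.25 and 5.96 CPM in controls and 20.7 and 22.9 CPM in mutants (1.83), Prg3 changed by 3.69, and Ccr3, the eotaxin receptor gene, had 0 counts in both controls and 24 and 14 in mutants. Epx, the eosinophil peroxidase gene, did not pass (0.28), and Ear1 and Ear2 had at most 2 counts in any library.

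Of the 10 mast cell and basophil genes only 2 could be tested, and both rose: Cpa3, a mast cell protease gene (3.76), and Hdc, the enzyme that makes histamine (1.89). Cpa3 passed the filter on low counts only through the mutant libraries. The defining genes Mcpt4 and Tpsab1 had 0 counts in every library, and Mcpt8, Cma1, Tpsb2, Fcer1a and Prss34 had at most 2 in any, while Ms4a2 had 1 and 5 in controls and 10 and 12 in mutants. The summed level went from 2.38 and 2.80 to 11.3 and 11.4 CPM.

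Neutrophil genes were divided: 4 of 9 rose, led by S100a8 (2.56) and S100a9 (2.56), 1 fell (Elane, -0.87, adjusted p = 0.0621 with DESeq2) and 4 did not pass, with sums of 57.3 and 61.3 CPM in controls and 141 and 145 CPM in mutants. Of 7 monocyte and macrophage genes 6 were tested and 3 rose, Lyz2 (2.97), Csf1r (1.28) and Emr1 (0.54, adjusted p = 0.279 with DESeq2), with sums of 13.1 and 12.4 CPM against 28.0 and 27.1 CPM, while Cd14 had at most 5 counts in any library. Of 7 megakaryocyte genes 5 rose, led by Pf4 (2.51), and Vwf fell (-0.59); the sums were 107 and 103 CPM against 221 and 215 CPM. Of 5 stem and progenitor genes 4 rose, led by Cd34 (4.08), and Kit did not pass (0.06), with sums of 189 and 193 CPM against 239 and 244 CPM. Most of these sums was Kit alone, at 184.2 and 188.5 CPM in controls and 190.3 and 197.7 CPM in mutants. Among 8 lymphoid genes 2 were tested and both rose, Cd79b (2.95) and Cd3g (1.03, adjusted p = 0.237 with DESeq2). The lymphoid sums were 1.055 and 1.329 CPM in controls against 5.663 and 5.149 CPM in mutants. Cd79b and Cd3g, and the risers Flt3 and Slamf1 of the stem and progenitor list, passed the filter on low counts only through the mutant libraries. Of 6 hepatoblast genes 5 rose, by up to 1.38 (Krt18), with sums of 876 and 868 CPM against 1199 and 1210 CPM. For all lists in this paragraph, the shares over all tested genes were 28.3% higher and 29.2% lower.

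The 8 markers of the labelled erythroid progenitors were abundant in all libraries and all fell, by 0.21 (Kel) to 0.98 (Slc4a1) on the log2 scale, and Tfrc, the gene of the sorting marker CD71, by 0.50 (edgeR adjusted p = 0.00794, but 0.0702 and 0.0677 without mutant replicate 1 and without mutant replicate 2). Their sums were 6004 and 6182 CPM in controls and 4074 and 3959 CPM in mutants. Of all tested genes 29.2% fell. With library totals as the only scaling 7 of the 8 passed, Kel being the exception. The part of any of these cell types in the rise of the receptor genes was not tested.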

How the data were processed

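mRNA was sequenced in 4 libraries, 2 control and 2 mutant, grouped by their titles. Per the submitters' processing notes FastQC, Bowtie, edgeR and mm9 were used; counting rules, strand and versions are not given in the sources used here. The authors deposited raw counts per gene, and a table with log2 fold changes, log2 concentrations, p-values and flags per the file headers, of which only fold changes are printed. The columns named WT were assigned to control samples by number. Of 35939 rows, 12 with NA were left out. The labels describe a group's libraries as biological replicates.

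The count model was edgeR 4.0.16 under R 4.3.3 (filterByExpr, TMM factors of 0.952 to 1.05, glmQLFit robust, two-sided glmQLFTest, Benjamini-Hochberg over 13140 genes; standard error as the absolute log2 fold change over the root of F); the script was tested on simulated counts. An exact permutation test of 2 against 2 cannot go below 0.33 and was not used. Alternatives were RLE, upper quartile and total scaling, 2 other filters, DESeq2 1.42.0, limma-voom (limma 3.58.1), the exact test of edgeR, no robust spread, a replicate block, each library left out in turn and, chosen after seeing the data, a prior count of 2 in place of 0.125. Lengths and transcripts came from GENCODE M21 (GRCm38), another build than mm9, so no coordinates are printed apart from those of RefSeq promoters. Biopython 1.88 aligned coding sequences. Intervals on ratios, shares and levels are exact binomial, Wilson and Poisson 95% intervals and, like the limit of 3 counts for a count of 0, cover counting error only. Near-identical and overlapping genes are uncertain.

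The members and lists were chosen with earlier results of these data known. Named genes were the members, Rcor1, from each list the 3 largest called changes, those against the majority and members of counts of 5 or fewer, the 3 nearest in pattern (mean of at least 1 CPM), and neighbours that were called or nearest; Jak2, Pim1, Cish and some markers were added after their values were seen, for their roles. Some listed genes are counted but not reported by name here.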

Additional observations from a re-analysis of the deposited data

How the results depend on the processing

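Of the receptor chains, Csf2rb, Csf2rb2, their sum and Il5ra kept their direction and their call in every alternative run. Leaving out 1 library gave log2 fold changes of 7.57 to 9.27 for Csf2rb, 7.39 to 9.80 for Csf2rb2, 7.54 to 9.35 for the sum and 4.75 to 8.60 for Il5ra. For Il3ra this range was 0.48 to 0.87, with adjusted p = 0.0805 at 0.56 without mutant replicate 1, and its call was also lost with DESeq2 (0.66). Csf2ra ran from -0.36 to 0.0407 (without mutant replicate 2), and was 0.0166 with total scaling; the cause was not tested. Its adjusted p was at least 0.129 in all alternatives. Genes called numbered 7558, 5917 with DESeq2, and 6234 to 7394 with 1 library left out. Total scaling moved the median change over tested genes from 0.01 to 0.15 and the split to 5112 higher and 2553 lower, and upper quartile scaling gave 4423 and 3088, against 3723 and 3835. The replicate block gave 8402 called genes, 8.14 for Csf2rb, 8.08 for Csf2rb2, 5.54 for Il5ra, 0.65 for Il3ra, -0.14 for Csf2ra and 8.14 for the sum, and changed no call among them; no label says that equal numbers mark a shared source, and the correlation of the differences between replicates 1 and 2 in the groups was 0.225 over 13140 genes. With 1 library left out, the lone library of its group is assumed to vary like those of the other group. Depth limits the control levels of Csf2rb2 and Il5ra, with 15 and 2 counts.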
